A study of Mus musculus with 8 samples.

Results

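The nuclei described here carried transcripts of B lymphocyte genes in single-nucleus RNA libraries of the adult mouse heart. They were chosen from 37767 nuclei in which 200 or more genes were detected and mitochondrial counts stayed below 5%. The gates kept the 7933 nuclei in which Ttn, Ryr2 and Trdn together made under 2% of the counts and in which Pdgfra, Cdh5, Csf1r and Rgs5 were at 0. The gate genes mark cardiomyocytes, fibroblasts, endothelial cells, macrophages and pericytes, but a nucleus of such a cell with no UMI of its gate gene stays in. A member then had transcripts of at least 2 of 6 markers, Pax5, Bank1, Ighm, Cd79a, Cd79b and Ms4a1. The rule found 132 members, 0.350% of the 37767 nuclei and 1.66% of those inside the gates.

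B lymphocytes carry an antigen receptor made of an immunoglobulin heavy chain and a kappa or lambda light chain, held with the signalling subunits CD79A and CD79B. The transcription factors EBF1 and PAX5 set and keep their identity. B cells are known residents of the mouse heart, where many lie inside or against the small vessels, and resting naive follicular B cells carry both IgM and IgD. Macrophages, the most numerous leukocytes of the healthy heart, share MHC class II and several signalling proteins with B cells.

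The study measured nuclear RNA in droplets (10x Genomics) from adult hearts of female and male mice that carried, by their labels, either no transgene on a wild-type background (nTg) or one that expresses cyclin A2 constitutively (Tg-ccna2, here Tg). Cyclin A2 drives the cell cycle. The 5 libraries used were 1 labelled as a nTg female (nTg female 1), 2 of Tg females and 2 of Tg males, and every series of 5 values below keeps that order, with replicate 1 before replicate 2. The matrices of the other 3 nTg libraries hold the same entries as Tg libraries and were not used. The labels do not give the animals' age, the promoter of the transgene or the number of animals behind a library, so p-values measure the spread between these libraries, which may be technical. Over all nuclei that passed the quality limits, Ccna2 itself reached 193, 0.746, 279, 92.2 and 71.4 counts per 1000000 (CPM). The library labelled nTg female 1 was thus high and the one labelled Tg female 1 near 0, against both labels, and no genotype is inferred from these values. Total depth ran from 25045167 to 38593706 transcript counts (unique molecular identifiers, UMIs) per library. Each pair of libraries shared 14 to 28 cell barcodes, and no barcode was a member in more than 1 library.

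The 5 libraries held 23, 29, 29, 31 and 20 members. Among the gated nuclei, 7485 had none of the 6 markers, 316 had 1, 67 had 2, 8 had 3, 13 had 4, 20 had 5 and 24 had all 6. The 316 nuclei just outside the threshold had no Pax5, an Igkc level of 1.40 CPM and a level of Mrc1, the macrophage mannose receptor, of 2231 CPM. The 67 just inside it had no Pax5 either, Igkc at 50.5 CPM and Mrc1 at 2900 CPM. Of these 67, 63 had the pair Bank1 and Ighm, 2 had Bank1 with Cd79a, 1 had Bank1 with Cd79b and 1 had Bank1 with Ms4a1. The 65 members with 3 or more markers, 49.2% of all members, stand apart from both. They are called high-marker nuclei below, and the other 67 are called 2-marker nuclei.

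**Figure D1:**
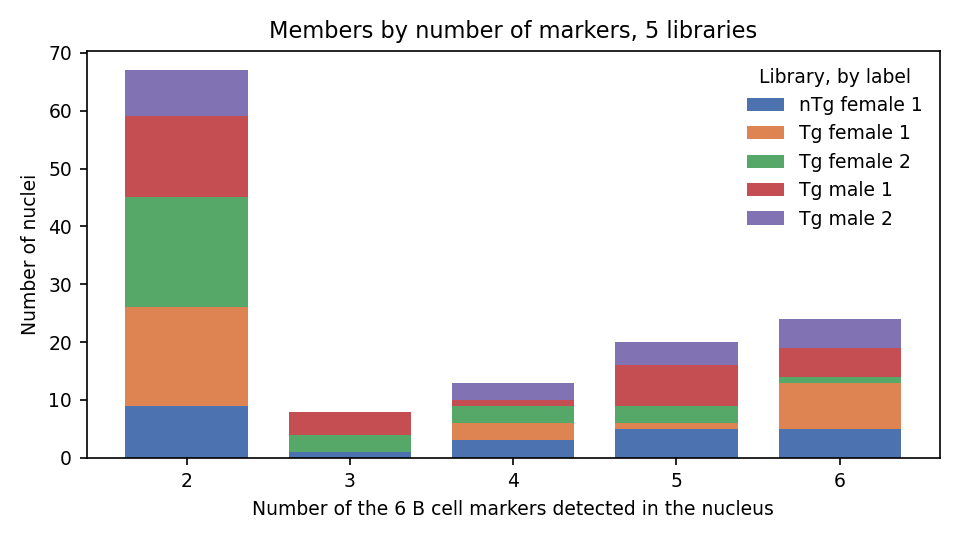
Number of members (vertical axis) by how many of the 6 B cell markers had at least 1 UMI (horizontal axis), with the colours giving the 5 libraries. Counts fall from 67 nuclei with 2 markers to 8 with 3 and then climb to 24 with all 6.

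The marker levels differed by class as the rule makes them, and are given as a description. BANK1 is a scaffold of antigen receptor signalling, and Bank1 lies on chromosome 3 at 136053363 to 136326066 (GRCm38 coordinates, the mm10 sequence). It reached a median of 7 UMIs in a high-marker nucleus and 2 in a 2-marker nucleus. Ighm, the constant region of the IgM heavy chain (chromosome 12, 113418558 to 113422730), reached 4 and 1, and 41 of the 67 2-marker nuclei had exactly 1 Ighm UMI. Bank1 was also seen in 39.5% of macrophage nuclei and Ighm in 16.2%, against 3.62% and 2.40% of nuclei with a Cdh5 UMI. Macrophage nuclei here are 2078 nuclei under the same gates without that on Csf1r, with at least 2 of Mrc1, F13a1, Adgre1, Mertk, Cd163 and C1qa and under 2 B markers. That cap keeps nuclei with both Bank1 and Ighm out of the class and so lowers both of its shares. The class with a Cdh5 UMI has no such cap. Pax5 (chromosome 4, 44524757 to 44710487) was present in 83.1% of high-marker nuclei and in none of the 67 2-marker, 2078 macrophage or 99 T and NK nuclei. A count of 0 in 67 nuclei allows a share of up to 4.48% of nuclei with a UMI. Intervals and such limits here cover counting error only.

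Depth was alike in both strata, with medians of 1974 UMIs (810 to 5627) and 1227 genes in high-marker nuclei and of 1992 UMIs (626 to 7973) and 1270 genes in 2-marker nuclei. Macrophage transcripts divided them. At least 2 of the 6 macrophage markers were present in 64 of 67 2-marker nuclei (95.5%) and in 3 of 65 high-marker nuclei (4.62%). No member had 2 or more of 6 T and NK markers, among them Cd3e, Cd3g, Themis, Skap1 and Cd247. Over 13 macrophage genes a 2-marker nucleus held a median of 41 UMIs and a high-marker nucleus 0. Over 8 genes of follicular B cells the medians were 0 and 7, with 58 of 67 and 2 of 65 nuclei at 0. By the listed markers, the name B lymphocyte holds for nearly all high-marker nuclei, with exceptions given below. Nearly all 2-marker nuclei carry macrophage genes and are called by their marker number only.

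**Figure D2:**
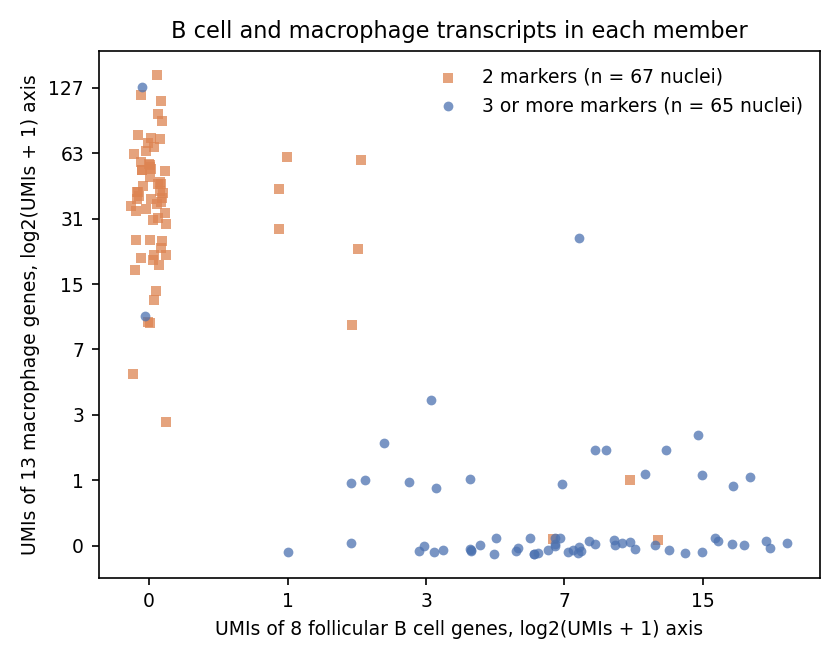
Each point is 1 member, placed by its UMIs of 8 follicular B cell genes (horizontal) and of 13 macrophage genes (vertical), both on log2(UMIs + 1) axes with a small random shift. Circles (3 or more markers, 65 nuclei) lie mostly along the bottom and squares (2 markers, 67 nuclei) mostly along the left edge, apart from 3 circles with 10, 24 and 126 macrophage UMIs and 3 squares with 6, 11 and 12 follicular UMIs.

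Few members crossed. Of the 2-marker nuclei, 3 had no macrophage marker and 6, 11 and 12 follicular UMIs; 1 came from the library labelled Tg female 1 and 2 from Tg female 2. Of the high-marker nuclei, 3 had 4 to 6 macrophage markers. All 3 had exactly 3 B markers and no Pax5, 1 came from Tg female 2 and 2 from Tg male 1, and they held 10, 24 and 126 macrophage UMIs. Those with 10 and 126 had no follicular, Ighd or Igkc UMI, while the one with 24 had 7 follicular UMIs. Together the 3 carried 160 of the 184 macrophage UMIs of the high-marker nuclei, and all 70 UMIs of F13a1, a coagulation factor subunit made by tissue macrophages. A doublet caller marked 6 nuclei in each stratum, counting in the library labelled Tg female 2, where it called none, the highest 5.22% of scores, and what part doublets or free RNA had in either was not tested. Myh6, the cardiomyocyte myosin heavy chain, was seen in 56.9% of high-marker nuclei, 58.2% of 2-marker nuclei, 56.6% of macrophage nuclei and 57.6% of T and NK nuclei.

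Promoter sequences of a pair of genes are shown because both are B cell genes described below and hold the core motif known for EBF factors. That motif, TCCC and GGGA with 2 free bases between them, is a palindrome and was sought on both strands in the 250 bases before each gene's start (RefSeq, GRCm38.p6), with overlapping matches counted once per promoter. It was found in 256 of 32851 promoters (0.779%). Of 30 listed B cell genes that passed the test as higher in high-marker than in 2-marker nuclei, 20 had a promoter entry and 2 of these held the motif, Cd22 and Foxo1. Fewer than 80% of the set had an entry, so no share is read from it. Capitals mark the motif, which begins 49 bases before the Cd22 start (chr7:30879029-30879278, minus strand) and 92 bases before the Foxo1 start (chr3:52268087-52268336, plus strand). The starts are those of RefSeq. The GENCODE annotation used for gene positions elsewhere places Cd22 at 30865402 to 30880342 of chromosome 7, so the Cd22 stretch lies inside the gene by that annotation.
Cd22: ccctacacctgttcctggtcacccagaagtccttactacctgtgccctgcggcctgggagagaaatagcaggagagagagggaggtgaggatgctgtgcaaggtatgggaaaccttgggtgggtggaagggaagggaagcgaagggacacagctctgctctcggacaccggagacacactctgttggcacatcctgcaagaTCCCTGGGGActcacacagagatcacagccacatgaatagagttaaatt
Foxo1: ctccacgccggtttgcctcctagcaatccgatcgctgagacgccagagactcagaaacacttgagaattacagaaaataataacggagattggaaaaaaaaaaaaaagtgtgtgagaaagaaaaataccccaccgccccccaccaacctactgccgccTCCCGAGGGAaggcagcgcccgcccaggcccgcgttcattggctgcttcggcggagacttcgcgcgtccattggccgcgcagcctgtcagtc
A match describes these letters only and does not show binding.

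High-marker nuclei carried transcripts of all parts of the receptor complex. Ighd, the IgD heavy chain constant region (chromosome 12, 113406604 to 113416324), was at 1504, 1394, 338, 1013 and 1939 CPM in them, and at 0, 0, 56.8, 0 and 56.9 CPM in 2-marker nuclei. Igkc, the kappa constant region (chromosome 6, 70726435 to 70726966), was at 1044, 2213, 966, 1239 and 1696 CPM against 0, 74.6, 141.9, 0 and 0. Iglc2, a lambda constant region (chromosome 16, 19198396 to 19200351), was at 829, 1435, 918, 315 and 727 CPM against 0, 49.7, 85.1, 0 and 0. For all 3 genes the lowest library of high-marker nuclei lay above the highest of 2-marker nuclei, and the 2-marker light chain counts came only from the Tg female libraries, which held the 3 crossing nuclei. Lambda constant genes can be close in sequence, so the level of a single one is uncertain.

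The test of high-marker against 2-marker nuclei used UMIs summed per library and edgeR's quasi-likelihood test with the library as a block. It was chosen after the strata were seen, and leaves out the 6 markers, all gate genes and the mitochondrial genes. The strata were split by genes that B cells express together with the genes tested, so these calls describe the strata and are not independent of the split. Of 900 genes with enough counts, 389 passed an adjusted p of 0.05 (43.2%), with 174 higher (19.3%) and 215 lower (23.9%) in high-marker nuclei. Ighd was higher by 5.50 ± 0.63 on the log2 scale (SE; adjusted p = 1.19e-05, edgeR) and Igkc by 4.76 ± 0.56 (adjusted p = 1.19e-05), each in 5 of 5 libraries. Of the 9 receptor and coreceptor genes that are not markers, 5 had enough counts, Ighd, Igkc, Iglc2, Iglc3 and Cd37, and were called higher. A gene that is near 0 in 1 stratum entered this test only through the other and had to differ, so counts of called genes per list, here and in the other comparisons, are descriptions and support nothing. Cd37 is a tetraspanin of B cells, and was at 799 CPM against 107 CPM, higher by 2.78 ± 0.44. Cr2, the complement receptor, was at 224 CPM in high-marker and 101 CPM in 2-marker nuclei and had too few counts for this test. Leaving out both libraries whose Ccna2 goes against the label left 192 calls.

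Among genes of receptor signalling, 6 of 11 with enough counts were higher and none lower. Blk, a B cell kinase of the Src family, was at 430, 369, 386, 338 and 436 CPM in high-marker nuclei and at 0, 49.7, 0, 0 and 0 in 2-marker nuclei (higher by 4.59 ± 0.88, adjusted p = 0.00048, edgeR). Ralgps2 was higher by 3.09 ± 0.44. The kinase Syk, which starts the signal, was at 1170 against 442 CPM (1.41 ± 0.31), and Prkcb and the adaptor Blnk were higher by 1.13 ± 0.31 and 1.34 ± 0.38. The Blnk call was lost without the filter on low counts (adjusted p = 0.0558) and without both libraries in doubt (adjusted p = 0.198, edgeR). Lyn, a Src family kinase shared with myeloid cells, was at 1219 against 840 CPM and did not pass (0.47 ± 0.30, adjusted p = 0.222), nor did Btk, Pik3cd, Dapp1 and Rasgrp3. In macrophage nuclei Blk was at 1.14 CPM and Ralgps2 at 93.0 CPM.

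The 2 inhibitory receptors of the B cell surface that entered the test, Cd22 and Siglecg, had no UMI in 2-marker nuclei. Cd22, a lectin that dampens the receptor and the gene of the first promoter above, was at 645, 574, 145, 293 and 533 CPM and at 0 in all 5 libraries of 2-marker nuclei, which is at least 22.9-fold higher with 3 UMIs over the group as the floor (adjusted p = 0.000268, edgeR). Siglecg, another lectin of this kind, was at 399, 656, 435, 270.2 and 388 CPM against 0, at least 21.4-fold higher. Inpp5d, the phosphatase SHIP1 found in most leukocytes, was at 785 against 998 CPM and did not pass. Only these 3 of the 8 listed genes had enough counts. Fcrl1, also at 0 in 2-marker nuclei, was at 196 CPM in high-marker nuclei and fell short of the filter.

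Of 15 listed transcription factors besides Pax5, 10 had enough counts and 7 were higher in high-marker nuclei, with none lower. Ebf1, the factor whose motif is shown above, was at 5863, 6148, 5312, 3941 and 8578 CPM against 0, 895, 284, 184 and 0 (higher by 4.62 ± 0.61, adjusted p = 2.17e-05, edgeR). Ebf1 is no B cell marker in this tissue, since it was at 1988 CPM in nuclei with a Cdh5 UMI, 2199 CPM with Pdgfra and 2630.1 CPM with Rgs5. Bach2, a repressor that holds B cells back from plasma cell fate, was at 3039, 4345, 1884, 2184 and 2859.5 CPM against 137, 348, 199, 184 and 56.9 (3.81 ± 0.38, adjusted p = 4.08e-06, edgeR). Pou2af1, the coactivator OCA-B, was at 307, 246, 580, 383 and 485 CPM against 0 throughout, at least 20.3-fold higher. Bcl11a was higher by 4.46 ± 0.61, Ikzf3 by 3.75 ± 0.64, Aff3 by 3.23 ± 0.47 and Foxo1, the gene of the second promoter above, by 2.43 ± 0.53. Mef2c was nearly level, at 1556 and 1661 CPM, and Ikzf1 and Tcf4 did not pass.

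**Figure D3:**
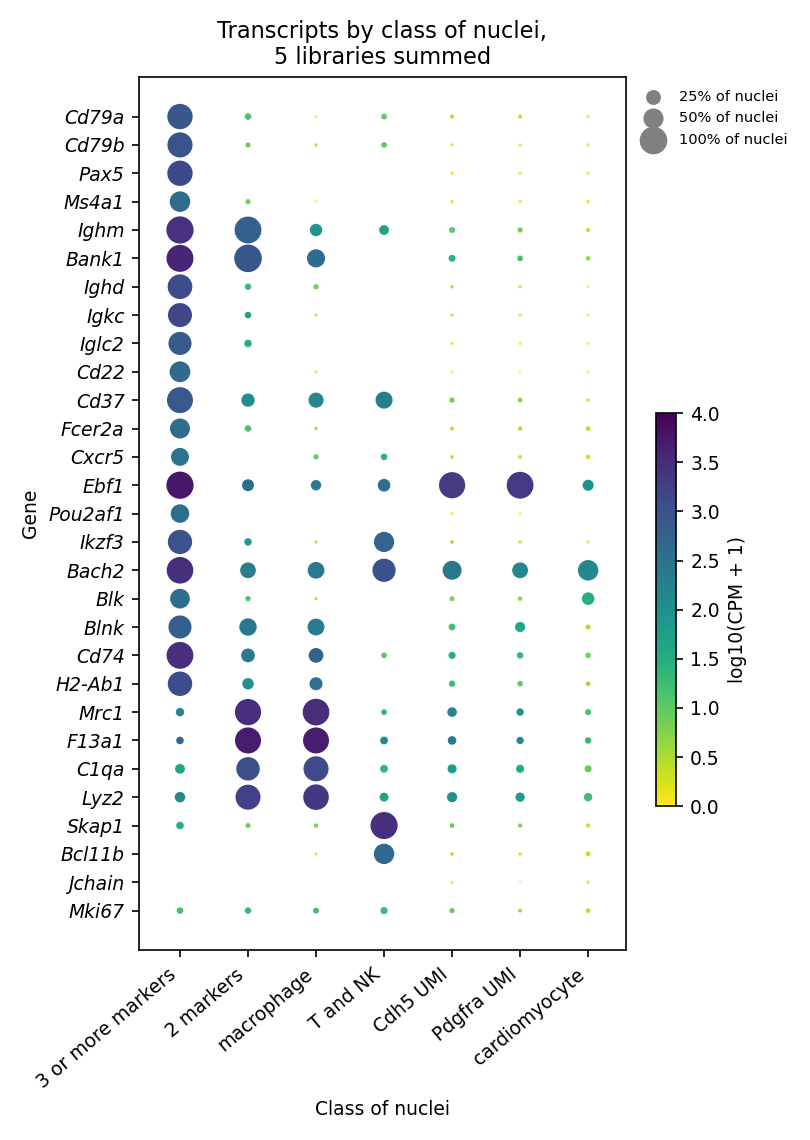
Genes (rows) by class of nuclei (columns), with the dot area giving the percent of nuclei with a UMI and the colour log10(CPM + 1), from the 5 libraries summed. Light chains and Cd22 have large dots in the column of 3 or more markers and small dots or none in the others, while the 2-marker column carries Mrc1, F13a1, C1qa and Lyz2 as the macrophage column does.

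Antigen presentation genes were higher in high-marker nuclei, with 1 exception. Cd74, the invariant chain that escorts MHC class II, was at 1903, 3812, 2801, 2725 and 3732 CPM against 229, 199, 483, 161 and 0 (higher by 3.76 ± 0.45, adjusted p = 1.34e-05, edgeR). H2-Ab1, an MHC class II beta chain, was at 921, 1680, 724, 1013 and 1696 CPM against 0, 74.6, 227, 115 and 0. H2-Aa, H2-Eb1 and H2-Ob, an inhibitor of peptide loading typical of B cells, also passed, the last at 708 against 37.9 CPM. Cd86, a costimulatory ligand, was the 1 gene of the 6 tested that was lower, by 1.85 on the log2 scale (log2 change -1.85 ± 0.50, adjusted p = 0.00665, edgeR). It was at 276, 41.0, 96.6, 180.2 and 48.5 CPM in high-marker nuclei and at 458, 572, 397, 322 and 797 CPM in 2-marker nuclei, with no overlap.

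Genes of follicular B cells and of homing were higher in high-marker nuclei. Fcer2a (CD23), the low-affinity IgE receptor of follicular B cells, was at 276, 819.7, 145, 383 and 291 CPM against 0, 24.9, 28.4, 0 and 0 (higher by 4.53 ± 0.88, adjusted p = 0.000547, edgeR). Cd55, a complement regulator, was higher by 3.91 ± 0.61. Of the 8 genes of the follicular list 4 had enough counts and were called higher, Ighd among them. Cxcr5, the receptor for the follicle chemokine CXCL13, was in 38.5% of high-marker nuclei at 287 CPM and in none of the 2-marker nuclei, with too few counts for the test. The integrin gene Itga4 was higher by 1.60 ± 0.35, and Ccr7 was present in 16.9% of high-marker nuclei.

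Genes of other states of the B lineage had few or no counts. The rule itself bears on this, since plasma cells are known to lose Pax5, Bank1 and Ms4a1 and switched cells Ighm, so that few such cells could be members. Among plasma cell genes Jchain, Sdc1, Prdm1 and Tnfrsf17 were at 0 in the 65 high-marker nuclei. A count of 0 here allows up to 21.0 CPM and up to 4.62% of nuclei with a UMI. Mzb1 was in 9.23% of these nuclei. Irf4, of the same list, was in 2 nuclei of each of the 5 libraries. Xbp1 was in 2 nuclei of Tg male 1 and 1 of nTg female 1. Of germinal centre and cycling genes S1pr2, Top2a and Ccna2 were at 0, Mki67 was in 3.08%, and Rgs13 was in 1 nucleus of nTg female 1. Of precursor genes Rag1, Rag2, Igll1 and Dntt were at 0, while the others of that list were seen in a few nuclei. Cd93 was in 2 nuclei of Tg male 1 and 2 of Tg male 2. Vpreb3 was in 1 nucleus each of Tg female 1 and Tg male 1, and Vpreb1 in 1 of Tg female 2. Class-switched heavy chains were nearly absent: Igha was in 1 nucleus, Ighg3 in 2, and Ighg1, Ighg2b, Ighg2c and Ighe in none. Markers of marginal zone and B-1 cells were also sparse, with Cd9 in 9.23% of nuclei, against 14.0% of macrophage nuclei, Cd5 and Spn in 1.54% each, and S1pr3 and Zbtb32 at 0. Of immediate early genes Fos and Egr1 were in 1.54% each and Fosb at 0, while the activation marker Cd69 was in 15.4%, against 8.08% of T and NK nuclei. None of these genes had enough counts for the tests of the strata, so these are levels only.

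Survival genes gave a mixed picture. Tnfrsf13c, the receptor for the survival factor BAFF, was in 3.08% of high-marker nuclei, and Tnfrsf13b (TACI) in 15.4%. Bcl2, which blocks apoptosis, was at 1197, 984, 531, 450.4 and 145 CPM in high-marker nuclei and at 275, 249, 369, 115 and 0 CPM in 2-marker nuclei (1.68 ± 0.41, adjusted p = 0.00307, edgeR). The range within each stratum was wide and the ranges overlapped, and without both libraries in doubt the Bcl2 call was lost (adjusted p = 0.145, edgeR). Tnfsf13b, which encodes BAFF, was at 0 in high-marker nuclei, 23.4 CPM in macrophage nuclei, 10.8 CPM in nuclei with Pdgfra, 10.5 CPM in cardiomyocyte nuclei and 4.98 CPM in nuclei with Cdh5. Cxcl13 was at 0.156 CPM over all nuclei, while Cxcl12, a broader homing chemokine, reached 198 CPM in nuclei with Cdh5.

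Pecam1 was the only listed endothelial gene with enough counts for the test. PECAM1 joins endothelial cells and is also carried by leukocytes. It was at 737, 1148, 531, 946 and 969 CPM in high-marker nuclei against 45.8, 149, 56.8, 276 and 56.9 CPM in 2-marker nuclei (2.75 ± 0.42, adjusted p = 6.61e-05, edgeR). Its 876 CPM over all high-marker nuclei lay beside 859 CPM in nuclei with Cdh5. Other endothelial genes were low, with Flt1 at 112, Kdr at 28.0, Ptprb at 49.1 and Emcn at 63.1 CPM in high-marker nuclei, and Cdh5 at 0 by the gate.

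By the rule for named genes, the widest differences beside the B cell genes given above were led by Kcnq5, a potassium channel gene, at 6.83 ± 0.61 (adjusted p = 1.05e-06, edgeR). Its level was 1134 ± 714 CPM (SD, n = 5) in high-marker nuclei and 4.97 ± 11.1 CPM in 2-marker nuclei. Also higher were Napsa, an aspartic protease (at least 21.1-fold), Kynu (at least 20.0-fold), Dpp4 (at least 18.5-fold), Gm13561 (at least 11.5-fold) and the calcium channel gene Cacna1e (5.70 ± 0.79). On the other side Colec12, a scavenger receptor, was at 16.4 ± 36.7 CPM against 2262 ± 1001 CPM (log2 change -6.95 ± 0.61, adjusted p = 1.05e-06, edgeR). Hsf3, Kcnk13, Vsig4, Lilr4b and Tgfbi were at 0 in high-marker nuclei, and were at least 27.0-fold, 24.0-fold, 21.3-fold, 16.2-fold and 15.3-fold higher in 2-marker nuclei. VSIG4 is a complement receptor of tissue macrophages. Gm2245, Hpgd and Ms4a4a were also lower, as was the macrophage marker F13a1.

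Macrophage genes were lower in high-marker nuclei. The 6 macrophage markers were called lower, as were C1qb, Lyz2, Rbpj and Lyve1. Mrc1 was at 0, 0, 96.6, 428 and 48.5 CPM in high-marker nuclei and at 3617, 2933, 2072, 2694 and 4100 CPM in 2-marker nuclei (log2 change -4.86 ± 0.63, adjusted p = 2.14e-05, edgeR). F13a1 was at 0, 0, 145, 1509 and 0 CPM against 5952, 4051, 4740, 4237 and 6889. The values of Tg female 2 and Tg male 1 above 0 came from the crossing nuclei described above. Fkbp5, a target of the glucocorticoid receptor, was at 338, 41.0, 96.6, 405 and 291 CPM against 1832, 273, 568, 1612 and 569 (-2.04 ± 0.37, adjusted p = 0.000338, edgeR). In macrophage nuclei the same gene was at 1443, 247, 475, 1580 and 1113 CPM, so the library labelled Tg female 1 was lowest in each of the 3 classes. Zbtb16 and Tsc22d3, other such targets, did not pass.

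Set against macrophage nuclei, the 2-marker nuclei differed in few genes. By rule, 2-marker nuclei had no Csf1r UMI, while macrophage nuclei could have Csf1r and had under 2 B markers. The Csf1r gate also separates the classes in the other comparisons with macrophage nuclei. What part these rules had in the calls was not tested. Of 9973 genes, 14 passed (0.14%), 2 higher (0.0201%) and 12 lower (0.12%), with 850 at an unadjusted p under 0.05. DESeq2 called 2, edgeR with RLE scaling 8 in an even split of 4 and 4, and edgeR without the library block 0. In simulated counts of this size the test recovered 47.8% of 4-fold and 57.6% of 8-fold changes and no 2-fold change, so small differences would be missed. Of the calls in simulated counts 12.3% were false. Igkc was higher (4.17 ± 0.88, adjusted p = 0.00322, edgeR), as was Ikzf3 (4.59 ± 0.80, adjusted p = 3.34e-05), both from 2 libraries of 2-marker nuclei with any UMI. All 8 Igkc UMIs lay in nuclei without 2 macrophage markers. H2-Ab1 was lower (-2.07 ± 0.36), as were Cd74 (-1.60 ± 0.28), H2-Eb1, Wdr17, Myh11, Apoe, Dgkb, Gm20528, Rcan2, Arhgap22, Fyb and Malat1. The library labelled Tg female 2 apart, Cd74 was at 0 to 229 CPM in 2-marker nuclei and at 482 to 762 CPM in macrophage nuclei, while Tg female 2 gave 483 and 347. Without Tg female 1 the test called 6 genes, and without Tg female 2 it called 8. None of the 7 tested genes of the second macrophage list passed (median -0.38, against -0.34 for all genes).

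The whole set of 132 members was also tested as it stands. Against T and NK nuclei 584 of 2038 genes passed (28.7%), 343 higher (16.8%) and 241 lower (11.8%). By the rule for named genes the leading ones were Gm31243, Igkc, H2-Ab1, Ighd, H2-Eb1, H2-Aa, Blnk, Gm43388, Iglc2 and Bcl11a, all at 0 in the 99 T and NK nuclei and at least 24.8-fold higher in members. The lowest were Gm48719, Gm2682, Bcl11b, Klrk1, Trbc1, Il7r, Prkcq, Trbc2, Ccl5 and Klrd1, genes that include receptor and signalling parts of T and NK cells. Against macrophage nuclei 890 of 9801 genes passed (9.08%), 350 higher (3.57%) and 540 lower (5.51%), while RLE scaling gave 429 higher and 352 lower. Among the leading ones were Gm43388, Iglc2, Gm30211, Pou2af1, Iglc3, Tmem163, Gm12462, Ly6d and Fcmr, the IgM receptor. The lowest were Myh11, BC049352, Arhgap22, Adam33, Kcnab1, Egfros, Slc7a8, B4galt6, Fyb and Ccl9. Both tests mix the 2 strata, and 2 calls of the first, Fkbp5 and Rbpj, changed sign with high-marker nuclei alone. Neither passed there (adjusted p = 0.363 and 0.315, edgeR).

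High-marker nuclei alone were also set against T and NK nuclei. Of 1235 genes, 322 passed (26.1%), 178 higher (14.4%) and 144 lower (11.7%), and 213 passed without the library labelled Tg female 1. Without both libraries in doubt 90 passed. Igkc was at 1432 ± 521 CPM (SD, n = 5) and at 0 in T and NK nuclei, at least 106-fold higher (adjusted p = 1.28e-06, edgeR), and Ighd was at least 93.4-fold and H2-Ab1 at least 88.6-fold higher. The calls on the higher side held 7 receptor genes, 6 MHC class II genes and 10 of 12 tested signalling genes, many of them at 0 in T and NK nuclei. Some genes known from both lymphocyte lineages did not pass in edgeR: Foxo1 at 420.4 against 341 CPM (0.26 ± 0.39, adjusted p = 0.687) and Itga4 at 757 against 905 CPM (-0.21 ± 0.28, adjusted p = 0.632). Ikzf1, a lymphoid factor, was lower (-1.10 ± 0.31, adjusted p = 0.0145, edgeR), as were Bcl2 (-1.39 ± 0.34, adjusted p = 0.00671) and Itgal, an integrin of leukocytes (-2.94 ± 0.67). The Ikzf1 call was lost when Tg female 1, Tg female 2 or Tg male 1 was left out (adjusted p = 0.0857, 0.0564 and 0.0584, edgeR), and the Bcl2 call without both libraries in doubt (adjusted p = 0.0728). Prkcq, a kinase of T cells, was lower, at 0 in high-marker nuclei and at 1219 ± 261 CPM in T and NK nuclei.

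Against macrophage nuclei, high-marker nuclei gave 1871 calls among 10137 genes (18.5%), 408 higher (4.02%) and 1463 lower (14.4%). RLE scaling gave 516 and 1106, and DESeq2 gave 451 and 791. TMM put the median of all genes at -0.45 and RLE scaling at -0.23 on the log2 scale, so changes are read against that shift. Iglc2 was at least 1348-fold and Pou2af1 at least 674-fold higher than in macrophage nuclei, where both were at 0. Of MHC class II genes 8 of 10 were higher and Cd86 was lower (-2.19 ± 0.37, adjusted p = 8.75e-08, edgeR), though Cd74 was 1.87 ± 0.26 and H2-Ab1 1.25 ± 0.27 higher. Among signalling genes Lyn (-0.15 ± 0.26), Btk (0.51 ± 0.35), Plcg2 (0.49 ± 0.35) and Pik3cd (0.05 ± 0.36) did not pass. In simulated counts this test recovered 32.9% of 4-fold and 3.08% of 2-fold changes, and 12.1% of its calls were false. Fcgr2b, the inhibitory Fc receptor, was lower at 84.1 against 310.1 CPM (-2.51 ± 0.43, adjusted p = 1.68e-07, edgeR), as were Spi1, the myeloid factor PU.1 (-2.20 ± 0.47), and Cd81 (-1.73 ± 0.38). Of the glucocorticoid list 5 of 7 were lower, led by Per1 (-2.92 ± 0.74) and Fkbp5 (-2.61 ± 0.34).

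Light chain transcripts were read nucleus by nucleus. A mature B cell usually makes either a kappa or a lambda chain. Of 65 high-marker nuclei, 38 had UMIs of both Igkc and a lambda constant gene (58.5%, exact binomial 95% interval 45.6 to 70.6), 10 had kappa only, 13 lambda only and 4 neither. In 29 nuclei both kinds had at least 2 UMIs, and among the 38 kappa led in 18, lambda in 12 and 8 were level. By library, both kinds were present in 12 of 14, 9 of 12, 2 of 10, 8 of 17 and 7 of 12 nuclei. The library labelled Tg female 2 stood low. By median it also had the shallowest high-marker nuclei, at 1319 UMIs, and Pax5 was in 5 and C1qa in 4 of its 10. What part depth or the make-up of these nuclei had in its low share was not tested. Background was low, with Igkc in 0.144% of macrophage nuclei and 0.182% of nuclei with Cdh5, and Iglc2 in 0% and 0.170%. What brought both chains into the same nucleus was not tested.

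**Figure D4:**
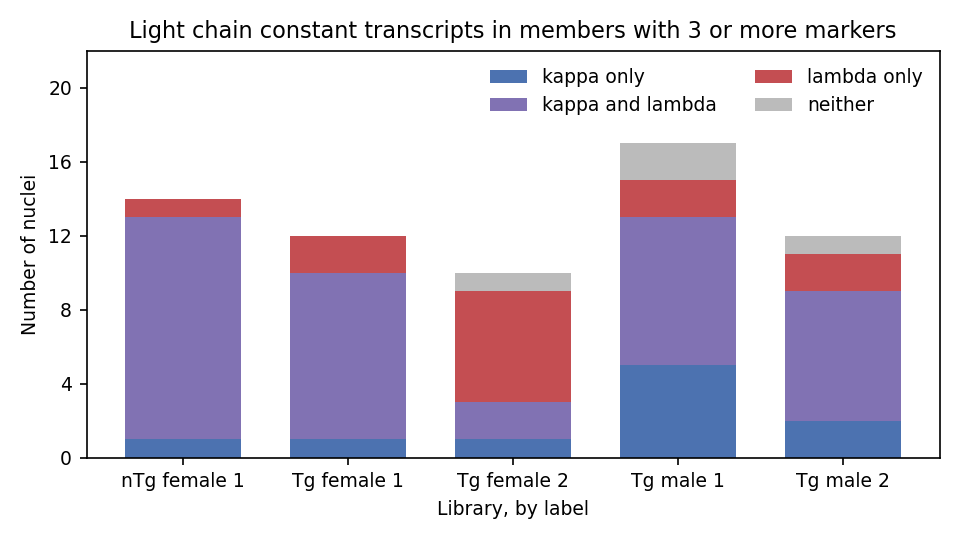
Number of high-marker nuclei (vertical axis) in each library (horizontal axis) by the light chain constant transcripts they held. Nuclei with both kappa and lambda form the largest share of 4 libraries, and lambda only leads in Tg female 2 with 6 of 10.

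IgM and IgD were found together. Ighm and Ighd were both present in 50 of 65 high-marker nuclei (76.9%, 64.8 to 86.5), and in 13 of 14, 11 of 12, 4 of 10, 11 of 17 and 11 of 12 by library, with Tg female 2 again lowest. Variable region transcripts were sparse, with a heavy chain V gene in 14 nuclei, a kappa V gene in 20 and a lambda V gene in 6. Only Ighv6-6 recurred among the heavy chain V genes, in 2 nuclei, while Igkv1-110 and Igkv1-117 were each in 4 and Igkv2-109 in 3. V genes of a family are close copies, so their counts are uncertain. In 2-marker nuclei 63 of 67 had no light chain transcript (94.0%), 62 had Ighm without Ighd and 1 had both.

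The exact intervals of the share of high-marker nuclei among gated nuclei overlapped between all 5 libraries. It was 1.25% (exact 95% interval 0.686 to 2.09) in nTg female 1, 0.544% (0.282 to 0.949) and 0.573% (0.275 to 1.05) in the Tg females, and 1.05% (0.612 to 1.67) and 0.964% (0.499 to 1.68) in the Tg males. The Tg female mean was 0.559% ± 0.0202 (SD, n = 2) and the Tg male mean 1.01% ± 0.0605 (SD, n = 2). Both males lay above both females, by 0.448 percentage points (female minus male -0.448), with p = 0.333 in the exact two-sided permutation test, which is the smallest value 2 against 2 allows. With the nTg female library the female mean was 0.790% ± 0.400 (SD, n = 3) and the order no longer held (exact permutation p = 0.4, smallest possible 0.1). As a share of all nuclei that passed the quality limits, the difference was -0.0613 percentage points.

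The share of all members was 2.06, 1.32, 1.66, 1.91 and 1.61% of gated nuclei. Tg females averaged 1.49% ± 0.245 and Tg males 1.76% ± 0.217 (SD, n = 2 each; difference -0.271, exact two-sided permutation p = 0.667). The 2-marker nuclei alone pointed the other way, at 0.930% ± 0.225 in Tg females and 0.753% ± 0.157 in Tg males (difference 0.177, exact permutation p = 0.667). The single library labelled nTg had 2.06% members and 1.25% high-marker nuclei, against 1.62% ± 0.245 and 0.783% ± 0.261 (SD, n = 4) in the Tg libraries. This difference was not tested, and the Ccna2 of the single library goes against its label.

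**Figure D5:**
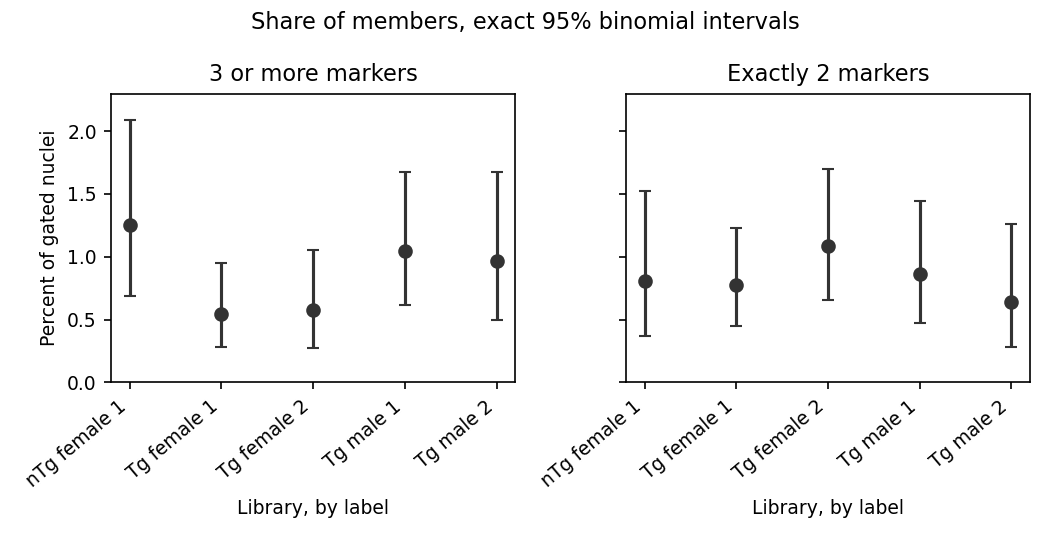
Percent of gated nuclei (vertical axis) that were high-marker nuclei (left) and 2-marker nuclei (right) in each library, with exact 95% binomial intervals. On the left nTg female 1 is highest at 1.25% and both Tg females lowest, and all 5 intervals overlap.

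In the sex comparison of all members, 2 of 1437 genes passed (0.139%), with 78 at an unadjusted p under 0.05. They were Xist, the RNA that silences an X chromosome, and Tsix, its antisense partner, with 224 and 178 UMIs in Tg females and 0 in Tg males. Whether Tsix reads are its own cannot be told apart from Xist, as counting by strand is not given in the sources used here. DESeq2, RLE scaling and the high-marker nuclei alone also gave 2 calls, while leaving out 1 library gave 43 without Tg female 1, 9 without Tg female 2, 9 without the first Tg male and 25 without the other, each with 1 library left on a side. In simulated counts the test recovered 68.2% of 4-fold and 10.4% of 2-fold changes. No gene of the receptor, signalling or MHC class II lists passed.

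Levels of several genes in high-marker nuclei are set out here by library, with no test. Ighd in nTg female 1 was 1504 CPM (exact Poisson interval 1113 to 1988), inside the Tg range of 338 to 1939 CPM. Pax5 was at 1443 CPM (1060 to 1918) there, also inside the Tg values of 1517, 628, 946 and 2472. Bcl2, at 1197 CPM (851 to 1637), was highest in that library, but the Tg female 1 value of 984 lay inside its interval. Cd74, at 1903 CPM (1459 to 2440), was lowest there, below the Tg range of 2725 to 3812 CPM. The library labelled Tg female 2 was lowest in Pax5, Ighd, Igkc, Cd22 and Fcer2a, but highest in Pou2af1 and next to highest in Siglecg and Iglc2.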

How the data were processed

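Per the submitters' processing notes, the authors ran Cell Ranger 7.0.0 on mm10, and the deposited matrices hold raw UMI counts per gene and nucleus, with 32285 genes per library. Matrices were used where their columns equal the listed barcodes (5 libraries). Members and gene lists were chosen with earlier results of these data known. UMIs were summed per library and class and tested with edgeR 4.0.16 (quasi-likelihood, TMM, filterByExpr, Benjamini-Hochberg over all genes tested, library as a block except between sexes). DESeq2 1.42.0, in R 4.3.3, was an alternative. All 132 members against T and NK nuclei or macrophage nuclei and the sex comparison were planned; comparisons of high-marker or 2-marker nuclei were added after seeing the data. T and NK nuclei had at least 2 of 6 markers under the same gates. Shares were compared by exact permutation (scipy 1.17.1). Named genes were, per comparison, the 10 highest and 10 lowest log2 changes among those with adjusted p under 0.05, at least 100 CPM in the higher class and the same direction in every library, plus listed genes; some genes are not reported here. SE is that of the fitted log2 change. Folds against a class at 0 use 3 UMIs over that class. Doublets were called with scrublet (scanpy 1.11.5) and kept. Tested on simulated counts with 200 changed genes, the strata test recovered 84.4% of 4-fold and 31.8% of 2-fold changes. Ccl19 and Ccl21a were not analysed here. Same-numbered Tg females and males share only a number in the labels.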

Additional observations from a re-analysis of the deposited data

How the results depend on the processing

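Of 3882 values for 357 called genes under the alternatives, 3640 kept direction and call, 240 lost the call and 2 reversed. Both reversals were in all members against T and NK nuclei with 3 or more markers required, Fkbp5 at -0.51 and Rbpj at -0.96. Neither reversed value passed. The cause was not tested for any change below unless fewer nuclei or libraries were used. Numbers of genes called follow. All members against T and NK nuclei gave 584, and 317 with no replicate block, 322 with 3 or more markers, 240 after thinning to 1000 UMIs, 320 without both libraries in doubt and 452 to 509 leaving out 1 library. All members against macrophage nuclei gave 890, and 529 with DESeq2, 525 with no replicate block, 1871 with 3 or more markers, 2088 without members carrying 2 or more macrophage markers, 334 without both libraries and 608 to 833 leaving out 1. High-marker against 2-marker nuclei gave 389, and 590 unfiltered, 191 with no replicate block, 192 without both libraries and 295 to 355 leaving out 1. The 2-marker against macrophage nuclei gave 14, and 2 with DESeq2, 8 with RLE scaling, 41 unfiltered, 0 with no replicate block, 1 without both libraries and 6 to 13 leaving out 1. High-marker against T and NK nuclei gave 322, and 152 with no replicate block, 90 without both libraries and 213 to 267 leaving out 1. High-marker against macrophage nuclei gave 1871, and 1242 with DESeq2, 830 without both libraries and 1325 to 1618 leaving out 1. The sex comparison gave 2, and 11 unfiltered, 21 with 5 libraries and genotype as a covariate, 4 with the replicate block and 9 to 43 leaving out 1, where a lone library is assumed to vary like the others. Its block pairs libraries that share only a number in the labels. The deviations of same-numbered libraries correlated at 0.0455 over 1437 genes. With 2 libraries per sex this is a single contrast and cannot decide whether they were paired.

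The sex difference in the share of members (-0.271 percentage points) turned to 0.0673 without the class gates and 0.177 with exactly 2 markers, and lay between -0.444 and -0.0981 leaving out 1 library. The single nTg library's difference of 0.431 lay between 0.328 and 0.527. With 65 high-marker nuclei, a gene at 0 may reach 21.0 CPM, so rare transcripts were not detectable at this depth.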

Other observations

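The gates left out some nuclei with B cell genes. Among nuclei that passed the quality limits, 38 had 3 or more of the 6 markers but failed a gate, 17 of them through a Csf1r UMI. Pooled, 52.6% of the 38 had Pax5, 57.9% Ighd, 44.7% Igkc and 44.7% the macrophage gene Mrc1.

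Pairs of B markers were common where macrophage markers were. Of 2004 nuclei with at least 2 macrophage markers and a Csf1r UMI, 438 had exactly 2 B markers (21.9%) and 11 had 3 or more (0.549%). Of 590 such nuclei without Csf1r, 64 had 2 (10.8%) and 3 had 3 or more (0.508%). Median depth was 2151 UMIs in the Csf1r nuclei with no B marker and 2898 in those with 2, and 2012.5 and 2061.5 in those without Csf1r. At least 2 B markers were present in 20.6% of all nuclei with Csf1r, 1.58% with Cdh5, 0.875% with Pdgfra and 0.378% of cardiomyocyte nuclei. At least 3 were present in 0.550%, 0.182%, 0.100% and 0.0561% of the same classes, against 0.819% of gated nuclei. The part of depth and of free RNA in these shares was not tested.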
